A study of Homo sapiens with 4 samples.

Results

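The genes of the small (40S) subunit of the cytosolic ribosome were followed in total RNA and in ribosome-protected fragments (RPF, or footprints) of SW480, an established human cell line from a colorectal adenocarcinoma. The members were the 28 listed small-subunit genes whose symbol stands in the deposited tables, of 19192 genes in all. The 4 groups were footprints and total RNA of cells labelled IMP1-/-, and footprints and total RNA of wild-type cells, with 1 library in each. Each library was made from 3 pooled culture plates, and no treatment is named for either genotype. The sources used here do not say how IMP1 was disrupted or in how many clones.

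The small subunit is built from the 18S ribosomal RNA and a set of proteins that are each present once. The subunit binds initiation factors and the initiator tRNA, takes the mRNA in through an entry channel, reads codons at the decoding site and lets the mRNA out at an exit channel. Most mRNAs of ribosomal proteins begin with a C followed by a run of pyrimidines, the 5′ terminal oligopyrimidine (TOP) tract. TOP mRNAs are known to shift between ribosome-bound and free pools with growth signals through mTORC1 and the TOP-binding protein LARP1. IMP1, the product of IGF2BP1, is an RNA-binding protein of mRNA localization, stability and translation.

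The libraries held 3778316 counts for knockout-labelled footprints and 3782874 for wild-type footprints, and 4932388 counts for knockout-labelled RNA and 5551479 for wild-type RNA. IGF2BP1 had 115 scaled counts per 1000000 (CPM) in knockout-labelled RNA and 108 in wild-type RNA, and 39.4 CPM in knockout-labelled footprints and 75.4 in wild-type footprints. Its RNA change was 0.08 on the log2 scale with an interval of −0.08 to 0.25, and its footprints were at 0.523 of wild type. The place of the disruption is not given, so these counts need not show it, and the cells are called knockout-labelled throughout. The label of the wild-type RNA library names SW840 in its cell-line field and SW480 in its source name, a conflict that was not resolved. The summed level of 7 markers of colorectal epithelium was 5636 CPM in knockout-labelled RNA and 8382 CPM in wild-type RNA. The keratin genes KRT8 and KRT18 made up most of it, with KRT18 at 3096 CPM in knockout-labelled RNA and 4746 CPM in wild-type RNA and KRT8 at 1847 CPM in knockout-labelled RNA and 2933 CPM in wild-type RNA. The villin gene VIL1 had 0.403 CPM in knockout-labelled RNA and 29.01 CPM in wild-type RNA. E-cadherin, CDH1, was higher, with 57.6 CPM in knockout-labelled RNA and 15.05 CPM in wild-type RNA, as was EPCAM, with 230.2 CPM in knockout-labelled RNA and 196 CPM in wild-type RNA. Fibroblast, leukocyte and endothelial markers each summed to at most 9.06 CPM in knockout-labelled RNA and 10.5 CPM in wild-type RNA, and 3 neuron markers to 18.9 CPM in knockout-labelled RNA and 27.0 CPM in wild-type RNA. In footprints the endothelial markers summed to 12.4 CPM in the knockout-labelled library and 0 in wild type, while PTPRC, CD3E, DCN and RBFOX3 had 0 reads in all 4 libraries. A single library stood for each group, so differences have no replicate check, no test could be made, and genotype cannot be told apart from clone, culture or library preparation. Intervals below are 95% intervals of the counts and cover counting error only.

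The RefSeq start is shown for 9 members, since a TOP tract lies at the start of the mRNA and the members were compared by how strongly ribosomes occupied them. Each line gives 15 bases before and 15 bases from that start, 5′ to 3′ on the coding strand, from RefSeq on GRCh38.p14. Capitals mark the tract, defined as a C followed by at least 4 C or T that starts within 10 bases of the annotated start, searched on the coding strand alone. The fitting C nearest the start was taken, so pyrimidines of the same run before it, as in RPS7, stand in small letters. RPSA, RPS13, RPS18, RPS23 and RPS6 are the members whose footprints differed most between the genotypes, RPS7 and RPS9 those whose footprints differed least, RPS12 the one with the smallest change in the ratio of footprints to RNA, and RPS4X one with no tract in this window.
RPSA (chr3:39406705-39406734, plus strand): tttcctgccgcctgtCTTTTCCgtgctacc
RPS13 (chr11:17077653-17077682, minus strand): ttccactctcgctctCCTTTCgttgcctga
RPS18 (chr6:33272060-33272089, plus strand): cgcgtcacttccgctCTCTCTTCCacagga
RPS23 (chr5:82278340-82278369, minus strand): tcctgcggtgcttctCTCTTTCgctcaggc
RPS6 (chr9:19380222-19380251, minus strand): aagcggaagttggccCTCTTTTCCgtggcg
RPS7 (chr2:3575245-3575274, plus strand): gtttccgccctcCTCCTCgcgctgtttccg
RPS9 (chr19:54200843-54200872, plus strand): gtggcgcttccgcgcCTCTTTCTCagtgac
RPS12 (chr6:132814554-132814583, plus strand): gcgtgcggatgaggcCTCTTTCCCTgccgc
RPS4X (chrX:72277234-72277263, minus strand): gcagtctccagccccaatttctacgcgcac

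Of the 28 members, 25 were matched in the RefSeq table by symbol, and RPS2, RPS15A and RPS20 were not. The tract began exactly at the annotated start in 18 of the 25, or 72%, against 4.04% of all 27305 windows. Allowing 10 bases on either side, 23 of the 25 members (92%) and 33.3% of all windows held it. Tracts at the start ran from 6 bases in RPS13 and RPS25 to 14 bases in RPS24. The RefSeq start need not be the start used in these cells, and it is not that of the transcript named in the deposited tables except in RPS24. For RPS29 it lay 12334 bases upstream of the deposited transcript, so that its window, which holds no tract, is not shown or used further. For the other 24 members it lay between 775 bases upstream in RPS27A and 347 bases downstream in RPS25. A window without a tract says only that these letters are not in it.

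Taken as a pool, the footprints of the small-subunit genes were higher in the knockout-labelled library while their summed RNA stayed near the wild-type level. Together the 28 genes took 3.18% of knockout-labelled footprints (95% Clopper-Pearson interval 3.16 to 3.20) and 2.09% of wild-type footprints (2.08 to 2.11). Their share of total RNA was 2.42% in the knockout-labelled library and 2.46% in wild type. These are shares of bulk libraries, in which the amount per cell and the number of cells cannot be told apart. The pooled footprint count of the members was 1.52 times wild type after scaling (1.503 to 1.531), and their pooled RNA count was 0.970 times wild type (0.962 to 0.977). Single members did differ in RNA, with log2 changes from −0.62 in RPS9 to 0.49 in RPS29. The RNA interval lay above 0 in 10 members and below 0 in 15. The members were among the deeply counted genes, with 255 to 12252 reads in knockout-labelled footprints and 170 to 8429 in wild-type footprints, and all 28 passed the minimum of 50 reads over both libraries of each kind.

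A member was called higher or lower when its scaled ratio of knockout-labelled over wild type was at least 1.5-fold, or 0.58 on the log2 scale, and its interval excluded no change. Translational efficiency (TE) is the ratio of footprints to RNA of a gene, and its change is the footprint change minus the RNA change, all on the log2 scale. In RNA, 0 of 28 members were called higher, where 16.2% of all measured genes were, and 1 was called lower, where 17.8% were. In footprints, 12 of 28 were called higher, where 19.0% of measured genes were, and 0 lower, where 20.1% were. In TE, 15 of 28 were called higher, where 15.7% of measured genes were, and 0 lower, where 13.9% were. At 2-fold, 4 members were called higher in footprints and 4 in TE, where 9.0% and 6.46% of measured genes were, and 0 higher and 0 lower in RNA, where 6.39% and 8.35% were. At a lower fold of 0.32 on the log2 scale, 24 members were called higher in footprints and 24 in TE, where 27.4% and 22.6% of measured genes were, and 3 higher and 7 lower in RNA, where 24.9% and 27.3% were. The median change of the members was −0.07 in RNA, 0.54 in footprints and 0.62 in TE, beside −0.01, −0.00065 and 0.03 over all genes measured. All 28 members had a TE change above 0, which 52.2% of measured genes had, and in 27 of them the interval lay above 0.

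**Figure D1:**
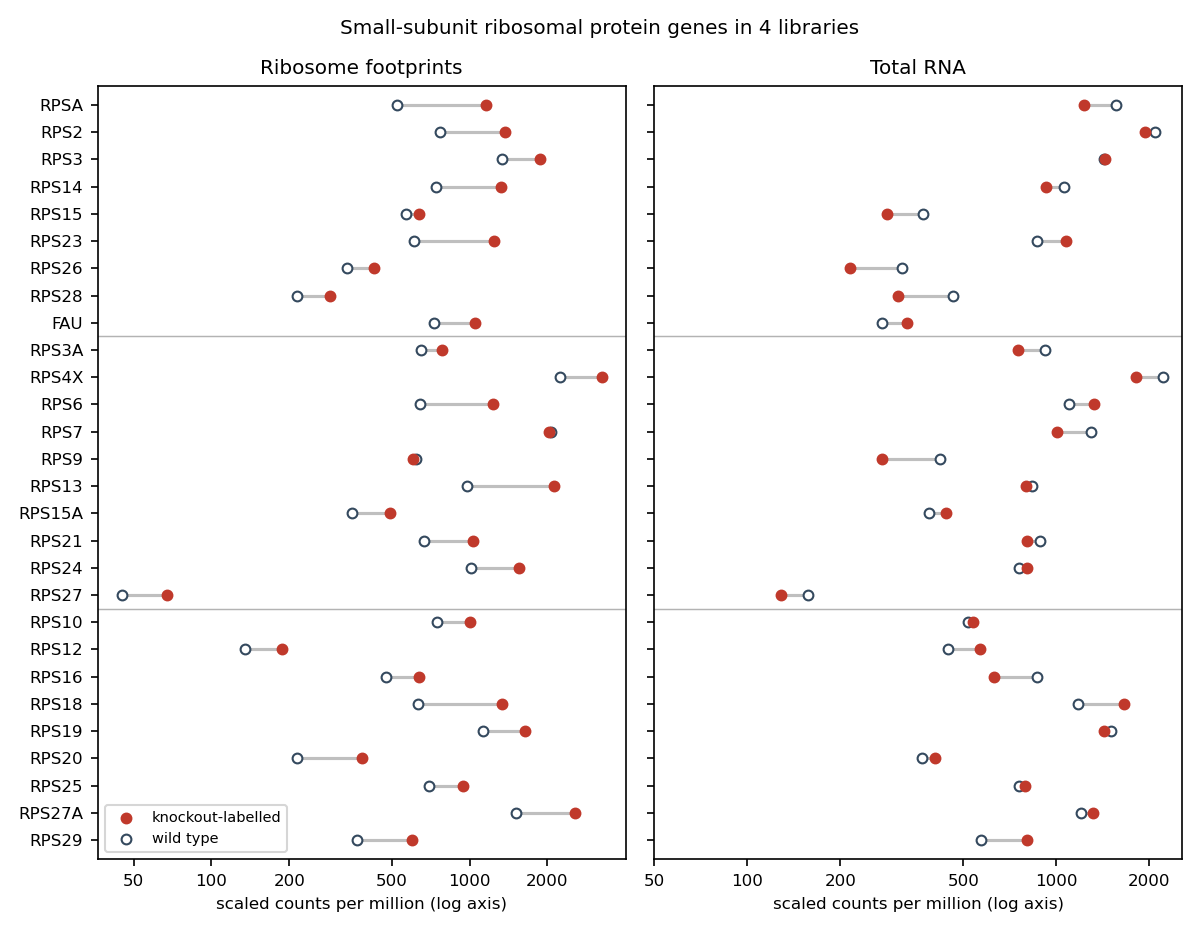
Scaled CPM (log axis) of the 28 small-subunit genes in footprints (left panel) and total RNA (right panel), with knockout-labelled libraries as filled points and wild-type libraries as open points, 1 library each. Grey lines separate proteins grouped here with the mRNA channel, other proteins of the body and platform, and other proteins of the head. In footprints the filled point lies to the right for 26 genes, the exceptions being RPS7 and RPS9, while in RNA it lies to the right for 13.

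Ribosomal protein genes are deeply counted and have short coding sequences, so 3 sets of genes outside the cytosolic ribosomal proteins, all chosen after the results were seen, were put beside the members. Among genes with a coding length no longer than the longest member, 23.6% of 2672 were called higher in footprints and 19.5% of 2594 in TE, with a median TE change of 0.11. Among 931 genes with at least the reads of the least read member, 14.1% were called higher in footprints and 8.16% in TE, with a median TE change of 0.04. The 274 genes that met both limits had 17.2% called higher in footprints and 11.3% in TE, a median TE change of 0.16 and 66.1% with a TE change above 0. The part of depth and length in the members' values was not tested. Across the 28 members, coding length ran from 168 bases in RPS29 to 885 bases in RPSA, and its Spearman correlation with the TE change was 0.134, a description over genes that share the same 4 libraries.

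The members grouped here with the entry of the mRNA channel, RPS2, RPS3 and FAU, had 1 of 3 genes called higher in footprints and the same 1 in TE. This grouping need not be complete, and RPS9, called higher in neither, was grouped with the body below. RPS2, a protein at the entry that is methylated on arginines, had 1374 CPM in knockout-labelled footprints and 765 CPM in wild-type footprints, against 1941 CPM in knockout-labelled RNA and 2087 CPM in wild-type RNA. Its footprint change was 0.84 (0.78 to 0.91) and its TE change 0.95 (0.87 to 1.03). RPS3, which holds mRNA at the entry through a KH domain, had 1865 CPM in knockout-labelled footprints and 1330 CPM in wild-type footprints, a change of 0.49 (0.44 to 0.54) that stayed under the fold required. FAU encodes RPS30 fused to a ubiquitin-like protein that is cut off, and its 1052 CPM in knockout-labelled footprints stood beside 727 CPM in wild type. Its RNA was higher as well, at 329 CPM in the knockout-labelled library and 273 CPM in wild type, so that its TE change was 0.27 (0.14 to 0.39).

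At the decoding site, RPS23 was called higher in footprints and TE and RPS15 in neither. RPS23, whose loop reaches the codon and anticodon, had 1244 CPM in knockout-labelled footprints and 609 CPM in wild-type footprints, a change of 1.03. In RNA it had 1074 CPM in the knockout-labelled library and 869 CPM in wild type, leaving a TE change of 0.72 (0.63 to 0.82). RPS15, a head protein with a tail that points to the decoding site, had 634 CPM in knockout-labelled footprints and 565 CPM in wild type, a change of 0.17 (0.08 to 0.25). Its RNA was lower, with 284 CPM in the knockout-labelled library and 370 CPM in wild type, and its TE change was 0.55 (0.42 to 0.68).

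At the exit of the channel, RPSA, RPS14, RPS26 and RPS28 were all called higher in TE, and RPSA and RPS14 also in footprints. RPSA (transcript ENST00000301821, chromosome 3, 39406689 to 39412542, plus strand, GRCh38), which is also known as the laminin receptor, had 1158 CPM in knockout-labelled footprints and 522 CPM in wild-type footprints. In RNA it had 1226 CPM in the knockout-labelled library and 1555 CPM in wild type, so its levels moved in opposite directions in the 2 kinds of library. Its footprint change of 1.15 (1.07 to 1.23) and TE change of 1.49 (1.40 to 1.58) were the largest of the 28 members. RPS14 (chromosome 5, 150442635 to 150449696, minus strand), a platform protein whose loss of 1 copy is tied to the 5q- syndrome, had 1325 CPM in knockout-labelled footprints and 740 CPM in wild-type footprints, with a TE change of 1.03 (0.94 to 1.11).

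RPS26 and RPS28, which contact mRNA upstream of the codon in the P site, had a lower RNA level beside a higher footprint level in the knockout-labelled libraries, and neither difference reached the fold. RPS26 had 426 CPM in knockout-labelled footprints and 334 CPM in wild type, but 215 CPM in knockout-labelled RNA and 316 CPM in wild-type RNA. Its footprint change was 0.35 (0.24 to 0.46), its RNA change −0.55 (−0.67 to −0.44) and its TE change 0.90 (0.75 to 1.06). For RPS28 the footprint levels were 288 CPM in the knockout-labelled library and 214 CPM in wild type, and the RNA levels 308 CPM in the knockout-labelled library and 462 CPM in wild type. The RNA changes of RPS26 and RPS28, −0.55 and −0.58, were just short of the fold required for a call.

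**Figure D2:**
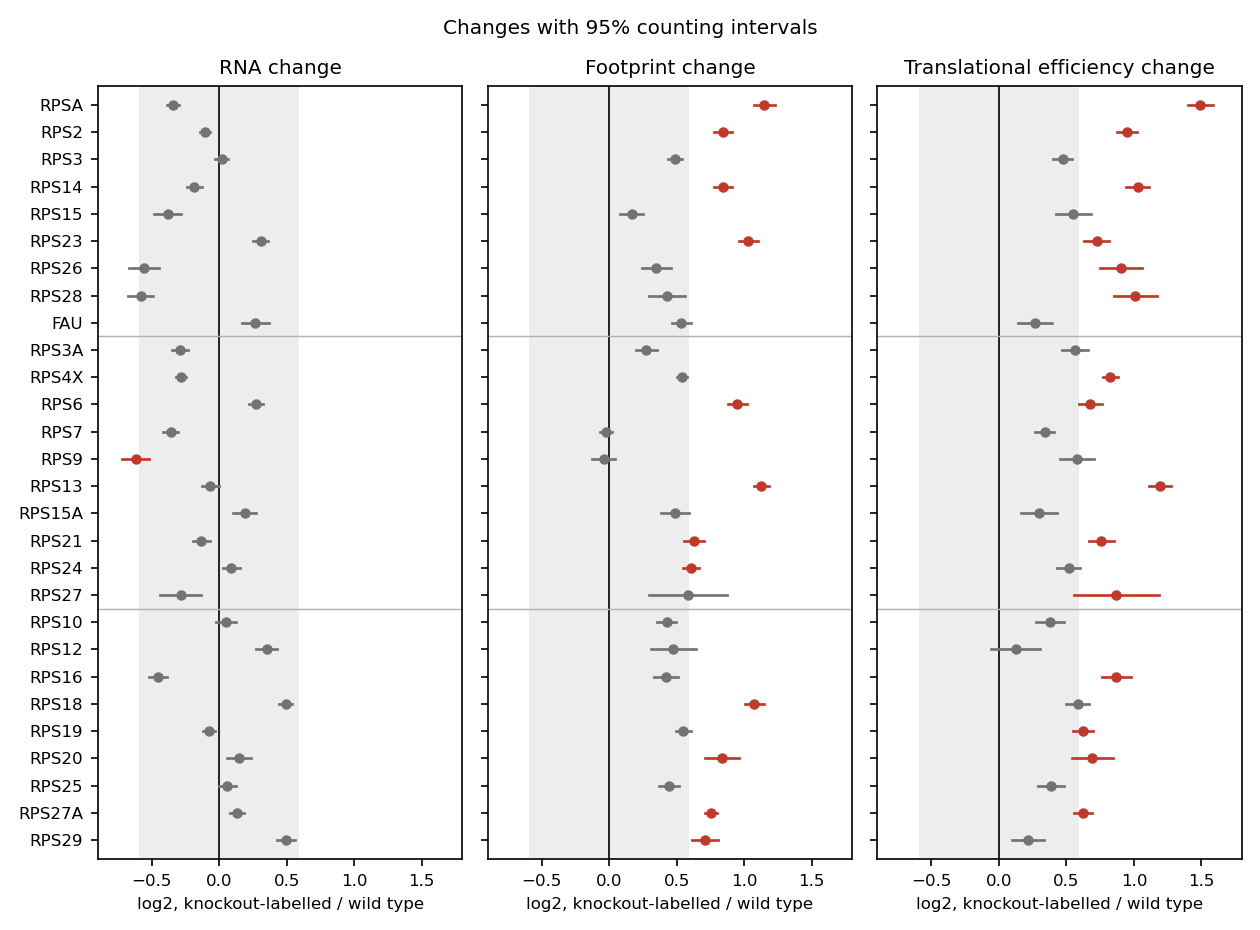
Change of each small-subunit gene in RNA, footprints and translational efficiency (log2 of knockout-labelled over wild type), with bars for 95% counting intervals, 1 library per group. Red marks genes called at 1.5-fold and grey shading the range inside that fold; 1 gene is red in RNA, 12 in footprints and 15 in translational efficiency.

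Among the other 10 proteins of the body and platform, 4 were called higher in footprints and 5 in TE, and RPS9 was called lower in RNA. RPS13 (chromosome 11, 17074389 to 17077787, minus strand), which sits at the platform facing the large subunit, had 2123 CPM in knockout-labelled footprints and 972 CPM in wild-type footprints, on RNA levels of 796 CPM in the knockout-labelled library and 834 CPM in wild type. Its footprint change was 1.13 (1.07 to 1.18) and its TE change 1.19 (1.11 to 1.28). RPS6 (chromosome 9, 19375715 to 19380254, minus strand), the protein phosphorylated by the S6 kinases downstream of mTORC1, had 1236 CPM in knockout-labelled footprints and 641 CPM in wild-type footprints. Its RNA was at 1324 CPM in the knockout-labelled library and 1097 CPM in wild type, and its footprint, RNA and TE changes were 0.95, 0.27 and 0.68. All of the RPS6 intervals excluded no change, and those of footprints and TE also passed the fold.

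RPS4X, an X-linked protein of the body, had 3240 CPM in knockout-labelled footprints and 2230 CPM in wild-type footprints. Its footprint change of 0.54 (0.50 to 0.58) fell short of the fold, and with RNA at 1815 CPM in the knockout-labelled library and 2212 CPM in wild type its TE change was 0.82 (0.77 to 0.88). RPS21 and RPS24 were the members just past the fold in footprints, at 0.63 and 0.61, and RPS27 and RPS19 those just short of it, at 0.58 and 0.55. RPS24, a protein mutated in Diamond-Blackfan anaemia, had 1546 CPM in knockout-labelled footprints and 1015 CPM in wild-type footprints. The small zinc-binding protein RPS27 was the least counted member, with 255 reads in knockout-labelled footprints and 170 in wild-type footprints, and its TE change of 0.87 had the widest interval, 0.55 to 1.19.

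In this group RPS7, RPS9, RPS3A and RPS15A were called in neither footprints nor TE, and RPS7 and RPS9 were the only members with a footprint change below 0. RPS7, which takes part in early 18S rRNA processing, had 2030 CPM in knockout-labelled footprints and 2064 CPM in wild-type footprints, a change of −0.02 (−0.07 to 0.02). RPS9, a protein that shapes decoding accuracy in bacteria and yeast, had 603 CPM in knockout-labelled footprints and 620 CPM in wild-type footprints, a change of −0.04 (−0.12 to 0.04). In RNA, RPS9 had 272 CPM in the knockout-labelled library and 419 CPM in wild type, or −0.62 (−0.72 to −0.52), the only call in RNA among the members. Its TE change of 0.58 was just short of the fold. RPS3A, a platform protein that initiation factor eIF3 contacts, had 780 CPM in knockout-labelled footprints and 645 CPM in wild-type footprints, with a TE change of 0.56 (0.47 to 0.66). RPS15A had footprint and TE changes of 0.49 and 0.30.

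Of the other 9 proteins of the head, 4 were called higher in footprints and 4 in TE, with RPS20 and RPS27A in both. RPS18 (chromosome 6, 33272010 to 33276510, plus strand), which faces the large subunit near the tRNAs, had 1332 CPM in knockout-labelled footprints and 632 CPM in wild-type footprints, and 1654 CPM in knockout-labelled RNA and 1176 CPM in wild-type RNA. Its RNA change of 0.49 (0.45 to 0.54) stood beside a footprint change of 1.08 (1.01 to 1.15), so that its TE change was 0.58 (0.50 to 0.67), just short of the fold. RPS29, a zinc-binding head protein, had RNA and footprint changes of 0.49 and 0.71, and its TE change was 0.22 (0.10 to 0.33). RPS20, which is ubiquitinated on collided ribosomes, had 383 CPM in knockout-labelled footprints and 215 CPM in wild-type footprints, on RNA of 406 CPM in the knockout-labelled library and 367 CPM in wild type, and its TE change was 0.69 (0.54 to 0.84).

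RPS27A, made as a fusion with ubiquitin, had 2554 CPM in knockout-labelled footprints and 1514 CPM in wild-type footprints, a footprint change of 0.75 (0.71 to 0.80) and a TE change of 0.62 (0.56 to 0.69). RPS16 and RPS19 were called in TE alone, at 0.87 and 0.62. RPS19, the gene most often mutated in Diamond-Blackfan anaemia, had 1644 CPM in knockout-labelled footprints and 1124 CPM in wild-type footprints. RPS10, another target of ubiquitination on collided ribosomes, and RPS25, a head protein that viral internal ribosome entry sites depend on, were called in neither, with TE changes of 0.38 and 0.39. RPS12 had the smallest TE change, 0.12 (−0.06 to 0.31), the only one whose interval included no change, with 188 CPM in knockout-labelled footprints and 135 CPM in wild-type footprints, on RNA of 568 CPM in the knockout-labelled library and 445 CPM in wild type.

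Of the 28 members, 9 were called higher in both footprints and TE, 3 in footprints alone (RPS18, RPS24 and RPS29), 6 in TE alone (RPS4X, RPS16, RPS19, RPS26, RPS27 and RPS28) and 10 in neither. Proteins of families shared by all domains of life had 8 of 13 called higher in footprints and 7 of 13 in TE, and those shared by eukaryotes and archaea or found in eukaryotes alone had 4 of 15 and 8 of 15. No test of the difference between these groups was available. Members with the tract exactly at the start had a median TE change of 0.60 with 9 of 18 called higher, the 5 with a tract elsewhere within 10 bases had 0.62 with 3 called higher, and RPS4X, with none in the window, had 0.82.

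**Figure D3:**
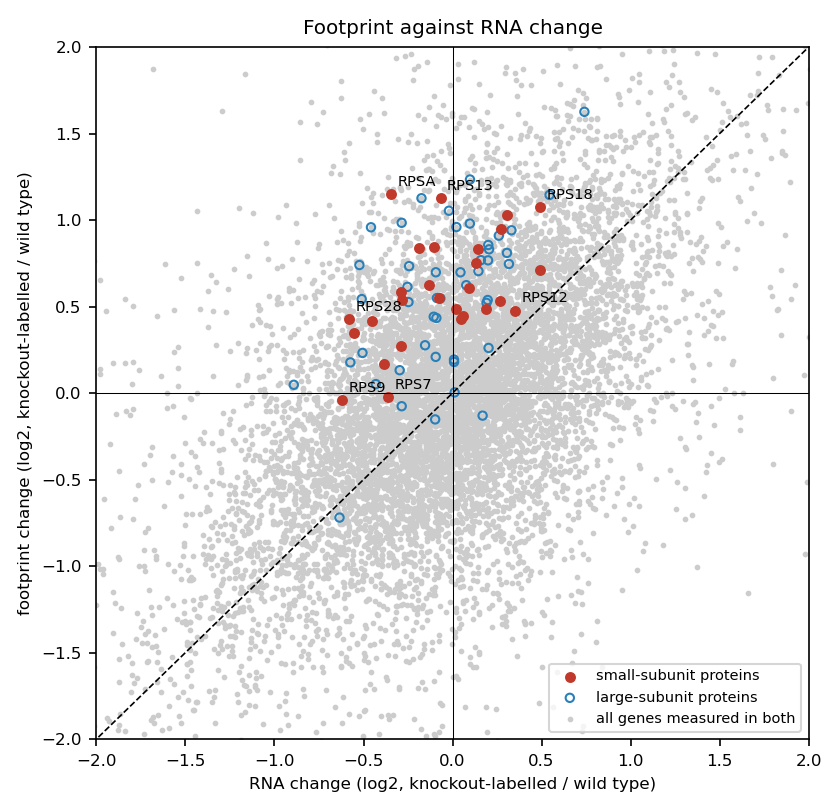
Footprint change against RNA change (log2 of knockout-labelled over wild type) for the 28 small-subunit genes in red, the large-subunit genes as blue rings and all genes measured in both kinds of library in grey; the dashed line marks equal change, and genes beyond 2 on either axis are outside the frame. All 28 red points lie above the dashed line, over an RNA range of −0.62 in RPS9 to 0.49 in RPS29.

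In TE level, the members stood below most genes in wild type and near the middle in the knockout-labelled cells. TE level is the log2 of scaled footprint CPM over scaled RNA CPM within a genotype, and it was ranked among the 9598 genes with enough reads in both kinds. The median percentile of the members was 53.6 in the knockout-labelled libraries and 31.6 in wild type, with 11 of 28 members below the median gene in the knockout-labelled libraries and 20 of 28 in wild type. RPSA stood at percentile 42.1 in the knockout-labelled libraries and 7.28 in wild type, and RPS2 at 29.6 in the knockout-labelled libraries and 8.82 in wild type. FAU was the highest member in both, at 95.8 in the knockout-labelled libraries and 94.2 in wild type. RPS12 was low in both, at 8.28 in the knockout-labelled libraries and 5.94 in wild type. RPS27 was the lowest member in wild type, at 5.24, and stood at 18.5 in the knockout-labelled libraries. These levels and the TE change rest on the same 4 counts per gene.

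The footprint density, in reads per kilobase of coding length, differed widely between genes whose proteins are present once per subunit, and the order was much the same in both genotypes. The median member had 8586 footprints per kilobase in the knockout-labelled library and 5301 in wild type. The highest member exceeded the lowest 20.4-fold in the knockout-labelled library and 19.9-fold in wild type, with 21 of 28 members within 2-fold of the median member in each. RPS27A was highest in the knockout-labelled library, at 2.40 times the median member, and stood at 2.31 times in wild type. RPS7 was highest in wild type, at 2.53 times the median, and had 1.54 times in the knockout-labelled library. RPS27 was lowest in both, at 0.118 times the median in the knockout-labelled library and 0.127 times in wild type, and RPS12 next, at 0.209 times in the knockout-labelled library and 0.243 times in wild type. The Spearman correlation of density between the genotypes was 0.906 for footprints and 0.924 for RNA over the 28 genes, with coding length shared by both axes.

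All 28 members have pseudogenes named after them in GENCODE release 29, 394 in all, from 1 for RPS9, RPS13 and RPS25 to 74 for RPSA. The deposited tables list 0 pseudogenes of ribosomal proteins, and the sources used here do not say how reads matching both a gene and a pseudogene were treated. Levels of single members, and the order of their densities, are uncertain for this reason. Its part in the changes between libraries was not tested.

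**Figure D4:**
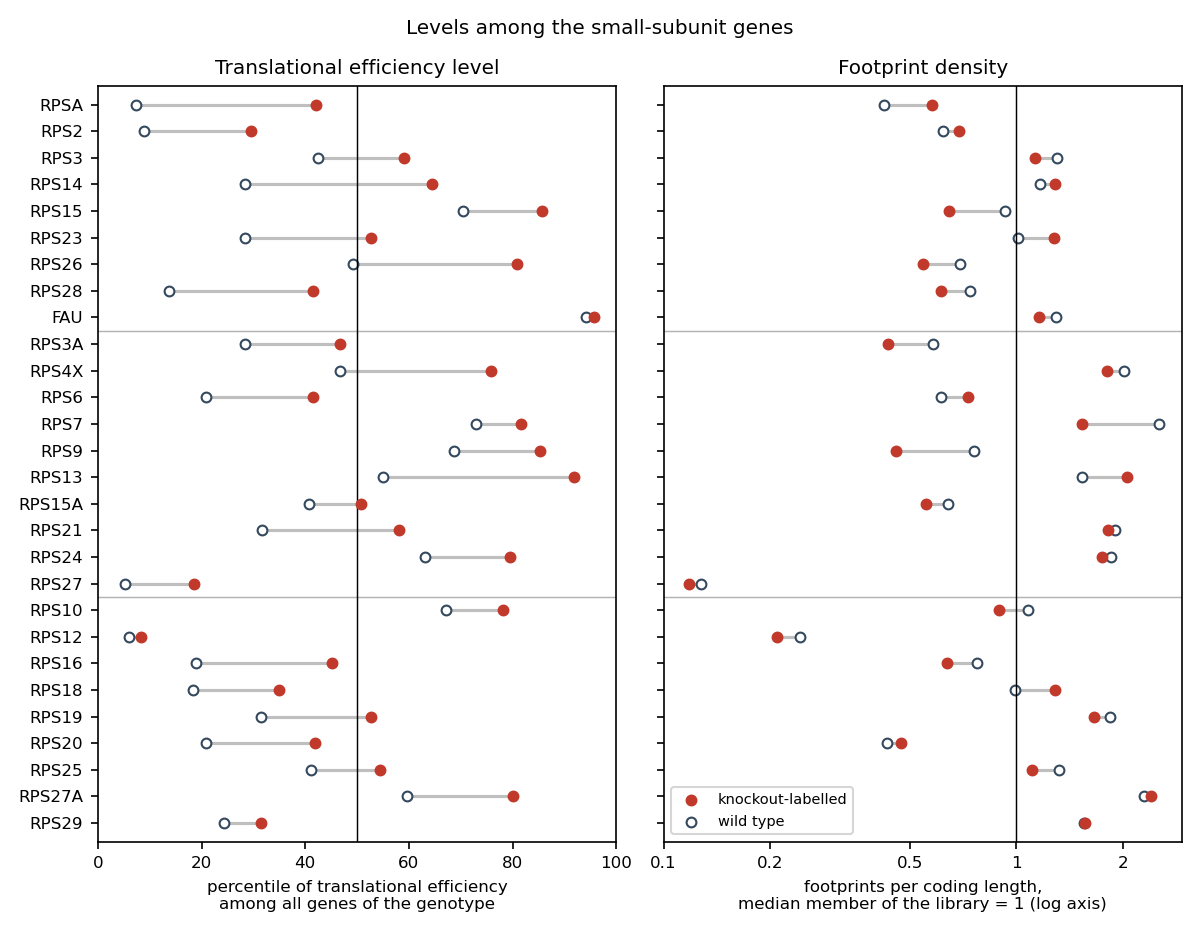
Left, translational efficiency of the 28 small-subunit genes as a percentile among 9598 genes of the same genotype; right, footprints per coding length relative to the median member of the same library (log axis), with knockout-labelled as filled and wild type as open points, 1 library each. RPSA stands at percentile 42.1 in knockout-labelled and 7.28 in wild-type cells, and RPS27 has the lowest density in both.

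The partners of the small subunit were counted by the same rule, and of the 7 other lists only that of the large subunit had a median footprint change above 0.5. Over all measured genes, 19.0% were called higher and 20.1% lower in footprints, and 15.7% higher and 13.9% lower in TE. The 47 large-subunit genes had 24 called higher in footprints and 1 lower (median 0.61), and 26 called higher in TE and 0 lower (median 0.61). Their pooled footprints were 1.47 times wild type, beside 1.52 for the small subunit, and their pooled RNA 0.965 times wild type, beside 0.970. In RNA 1 of the 47 was called higher and 2 lower, where 16.2% and 17.8% of measured genes were. The higher one was RPL26, with 839 CPM in knockout-labelled RNA and 502 CPM in wild-type RNA, a change of 0.74 (0.67 to 0.81). RPL26 had 1682 CPM in knockout-labelled footprints and 545 CPM in wild type, the largest footprint change of that list, 1.63 (1.55 to 1.70). RPL41 had a TE change of 1.42 (1.27 to 1.56). The 31 mitochondrial small-subunit genes in the tables had 6 called higher in footprints and 5 lower (median 0.03), and 8 higher in TE and 2 lower (median 0.26). In RNA 1 of the 31 was called higher and 7 lower (median −0.31). MRPS18C was among the higher in TE, at 1.98 (1.40 to 2.57), on 61 RNA reads in the knockout-labelled library and 108 in wild type. RPS27L, a near copy of RPS27 that is known as a p53 target, had 57.1 CPM in knockout-labelled footprints and 65.1 CPM in wild-type footprints, and was called lower in TE, at −0.65 (−1.08 to −0.22).

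Other mRNAs known to carry a TOP tract were called higher in TE in 7 of 15 genes and lower in 0, with a median of 0.50, while in RNA 0 were called higher and 6 lower, with a median of −0.40. In footprints the list was near the background, with 3 of 15 called higher and 1 lower and a median of 0.10. The elongation factor EEF2 had 2870 CPM in knockout-labelled footprints and 1490 CPM in wild type, and a TE change of 0.95 (0.90 to 1.01). The 3 genes called higher in footprints were EEF2, EEF1A1 with a change of 0.66 (0.64 to 0.69), and EEF1G, a subunit of its exchange factor, with 0.93 (0.84 to 1.02). The nucleolar protein NPM1 had 552 CPM in knockout-labelled RNA and 1077 CPM in wild-type RNA. Initiation factors that bind the small subunit had 5 of 25 called higher in TE and 0 lower (median 0.37), where 15.7% and 13.9% of measured genes were. EIF2S3 at 0.80 (0.65 to 0.95) and EIF4B at 0.77 (0.66 to 0.87) were among those higher. EIF3E, EIF3F, EIF3H and EIF4B are on both lists. In footprints the initiation factors had 1 higher, the start-codon factor EIF1 at 1.02 (0.96 to 1.08), and 2 lower, EIF3B at −0.75 (−0.85 to −0.66) and EIF5 at −0.69 (−0.85 to −0.54). In RNA they had 1 called higher, EIF1 at 0.64 (0.57 to 0.71), and 4 lower, where 16.2% and 17.8% of measured genes were. EIF3B had 366 CPM in knockout-labelled RNA and 566 CPM in wild-type RNA, and EIF5 had 238 CPM in knockout-labelled RNA and 269 CPM in wild-type RNA.

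The factors that assemble the small subunit had 0 of 28 called higher in footprints and 5 lower (median −0.12), and in TE 5 higher and 7 lower (median −0.03). In RNA 1 of the assembly factors was called higher and 5 lower, where 16.2% and 17.8% of measured genes were. UTP20, a subunit of the complex that processes early pre-rRNA, had 27.0 CPM in knockout-labelled footprints and 86.0 CPM in wild type. Its RNA was lower alike, with 23.2 CPM in the knockout-labelled library and 73.4 CPM in wild type. The RNA and footprint changes of UTP20 were −1.66 and −1.67. The rRNA methyltransferase fibrillarin, FBL, had 346 CPM in knockout-labelled footprints and 533 CPM in wild type. FBL RNA was at 194 CPM in the knockout-labelled library and 289 CPM in wild type. The list of mTORC1, S6 kinase and LARP1 genes also holds genes that restrain the pathway or translation, so its calls have no single meaning. It had 1 of 17 called higher in TE and 4 lower (median −0.06), where 15.7% and 13.9% of measured genes were. TSC2, which restrains mTORC1, was among the lower, at −1.09 (−1.47 to −0.72). MTOR was the higher one, with 146 CPM in knockout-labelled footprints and 79.4 CPM in wild type and a TE change of 1.13 (0.88 to 1.39). The translation repressor EIF4EBP2 had 19.0 CPM in knockout-labelled footprints and 50.5 CPM in wild type and a TE change of −1.14 (−1.55 to −0.73). The last list joined factors that ubiquitinate the small subunit with factors that act on stalled ribosomes or on subunits split from them. It had 1 of 8 called higher in TE, the rescue factor PELO at 0.60 (0.22 to 0.99). NEMF, which acts on the large subunit, was the 1 called lower, at −0.62 (−1.08 to −0.17).

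**Figure D5:**
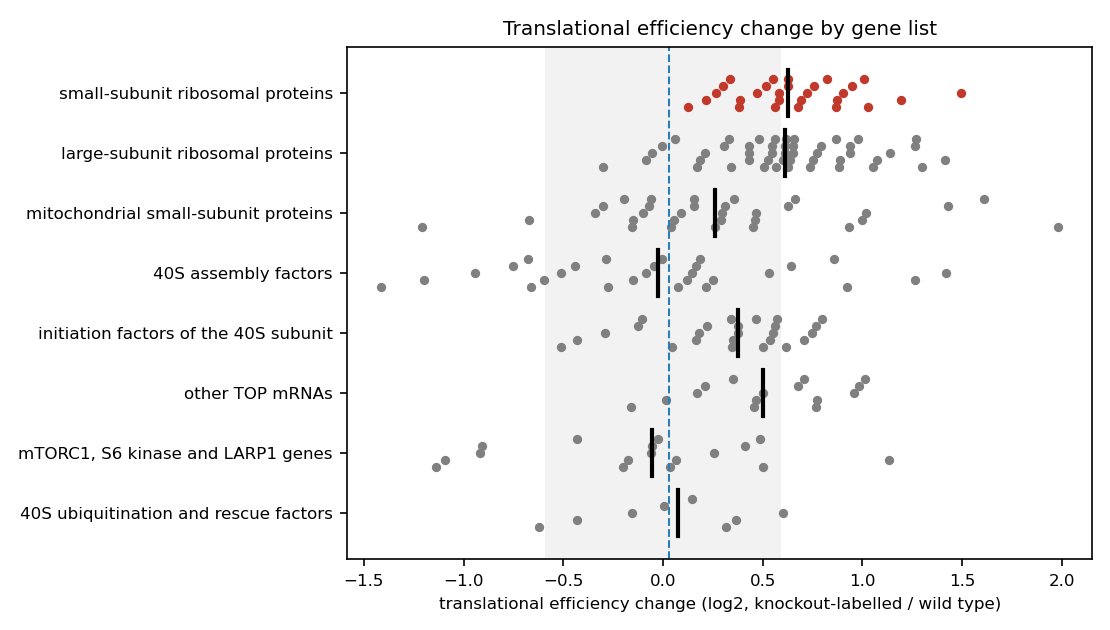
Translational efficiency change (log2 of knockout-labelled over wild type) of the small-subunit genes in red and of 7 other lists in grey, 1 point per gene, with black bars at the median of each list, a dashed line at the median of all genes and grey shading inside 1.5-fold. The small-subunit median is 0.62 and the large-subunit median 0.61, beside −0.03 for assembly factors.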

How the data were processed

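The authors deposited raw counts, whole numbers of reads for each gene symbol, with 1 Ensembl transcript named per symbol. Per the labels' protocols, size selection kept 18 to 34 nt for footprints and 18 to 50 nt for fragmented RNA from 3 pooled plates, random identifiers of 4 and 5 nt sat in the linkers, rRNA was depleted and 15 PCR cycles were run. Per the submitters' processing notes the tools included HISAT2 2.1.0, Bowtie 1.1.2 and cutadapt 1.10, and the build was GRCh38. The counter, the region counted, reads with several matches and any collapsing of identifiers were not given in the sources used here. Reads after PCR are not independent molecules. The reads behind a value set its precision, and a count of 0 allows up to 3 counts, or 0.540 to 0.794 CPM.

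Libraries of each kind were scaled by TMM in edgeR 4.0.16 (R 4.3.3), with a knockout-labelled over wild-type depth ratio of 0.900 for RNA and 1.00 for footprints. Changes are log2 ratios with a prior count of 0.5. RNA and footprint intervals are exact conditional (Clopper-Pearson) 95% intervals, and TE intervals come from the sum of reciprocal counts. The calculation was tested on simulated data drawn with counting error only and the same depth ratios, which cannot show how the intervals hold under replicate spread. The 4 libraries leave 0 residual degrees of freedom, so no p-value is given. Intervals were computed with SciPy 1.17.1, NumPy 2.4.6 and pandas 2.3.3 in Python 3.11.15, and figures drawn with Matplotlib 3.10.9. Coding lengths and coordinates are from GENCODE release 29, which held all 28 transcripts. DESeq2 1.42.0 size factors, library totals and TMM without ribosomal protein genes were the alternative scalings.

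All members may be named, and of each other list up to 3 called genes per comparison, ranked by the interval bound nearest to no change. The members and lists were chosen with earlier results of these data known. Some genes are not reported here.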

Additional observations from a re-analysis of the deposited data

How the results depend on the processing

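A scaling moves all genes of a library kind nearly alike, and 3 others shifted the median of all genes by at most 0.0193, so that they bear only on values near a limit. Members called higher in footprints numbered 13 with library totals, and in TE 17 with DESeq2 size factors and 16 with TMM without ribosomal protein genes. The pooled RNA ratio of 0.970 was 0.983 with library totals, 0.961 with DESeq2 size factors and 0.960 without RPS27A and FAU. RNA calls are few, and the 1 member called lower became 2 with DESeq2 size factors, 7 with a lower fold for a call (0.32 on the log2 scale) and 0 at 2-fold, while 3 were called higher with the lower fold. Members called higher in footprints numbered 24 with the lower fold and 4 at 2-fold, and in TE 24 and 4, beside 12 and 15 at 1.5-fold. The highest over the lowest density in wild-type RNA was 5.69-fold by coding length and 10.2-fold by transcript length. Beyond the construction of each alternative, the cause of these moves was not tested. No paired analysis was possible because each group has 1 library. Depth limits RPS27 and RPS12 most, as their footprint intervals show.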
